A study of Homo sapiens with 4 samples.

Results

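The cytosolic and mitochondrial heat shock proteins were followed here as 10 genes: HSP90AA1, HSP90AB1, HSPA1A, HSPA1B, HSPA8, HSPH1, DNAJB1, HSPB1, HSPD1 and HSPE1. They were taken by name from the 27685 gene IDs of each library, after the IDs had been paired with human symbols, and all 10 were found, each on a single row per library. RNA came from NCC-IT-A3, a human line of embryonal carcinoma, a germ cell cancer whose cells resemble those of the early embryo. The line had been exposed for 4 days to barasertib at 100 nM, which inhibits the mitotic kinase Aurora B, or to the solvent DMSO, and polyadenylated RNA was sequenced in 2 libraries of each. The comparison made is that of barasertib with DMSO.

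Heat shock proteins are molecular chaperones, which bind unfolded proteins and help them fold or keep them from clumping. Hsp70 proteins bind short exposed stretches of a client in cycles of ATP hydrolysis, J-domain proteins bring clients to Hsp70 and trigger that hydrolysis, and Hsp110 proteins release the nucleotide so that the cycle can restart. Hsp90 acts later, on near-native clients such as kinases and steroid receptors. In the mitochondrial matrix a barrel of HSPD1 (Hsp60) with a lid of HSPE1 (Hsp10) encloses the client. Some of these genes are transcribed at a high level in unstressed cells, and others are known as inducible, through the transcription factor HSF1 and the heat shock elements it binds.

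Levels are in TPM, which scales transcript abundance for length and to the same total in each library, so that they can be set side by side between genes. Changes are differences of mean log2(TPM + 1), barasertib minus DMSO, tested with limma on the 13938 IDs with a mean of at least 1 TPM, and a gene is said to have risen or fallen where its Benjamini-Hochberg adjusted p was under 0.05. All 10 genes passed that filter. The log2 scale with a pseudocount of 1 understates the change of low genes. The labels do not state separate cultures for the libraries of either group, and p-values then measure spread among these samples only, which may be technical. In bulk RNA, fewer cells with a transcript and less of it per cell cannot be told apart.

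As judged by the highest ratio of coverage to FPKM among genes above 1 FPKM, the aligned bases came to 4.59 and 4.52 Gb with barasertib. With DMSO they came to 4.22 and 4.43 Gb. The ratio was not the same for all genes, so these are rough estimates of depth. All 8 embryonal carcinoma markers looked up (POU5F1, SOX2, NANOG, LIN28A, SALL4, DNMT3B, TNFRSF8 and CLDN6) lay above 1 TPM on average, and they summed to 5887 to 5947 TPM with barasertib and 5095 to 5310 TPM with DMSO. Most of that sum was POU5F1, with means of 3974 TPM with barasertib and 3616 TPM with DMSO. They did not move alike: POU5F1, NANOG, LIN28A, DNMT3B and CLDN6 rose, SOX2 fell, and SALL4 and TNFRSF8 were not called. TNFRSF8 averaged 3.21 TPM with barasertib and 3.39 TPM with DMSO. The 3 yolk sac or endoderm, 2 trophoblast and 3 fibroblast markers did not exceed 0.602 TPM, and of the 2 blood cell markers PTPRC was at 0, while CD68 lay at 3.90 and 3.49 TPM with barasertib and at 3.89 and 3.30 TPM with DMSO. TPM is relative: over all tested genes the median log2 change was 0.11 in TPM, against -0.01 after median-of-ratios scaling and -0.01 after quantile normalisation, and each call is therefore followed under these scalings too.

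Heat shock elements are inverted repeats of a short unit, and the upstream sequences of the genes are shown because these repeats are the feature by which HSF1 is known to bind them. In the RefSeq promoter table (GRCh38.p14), 16 annotated starts belong to the 10 genes, and the 250 bases before each start were searched for a pair of units (GAANNTTC or TTCNNGAA) and for a triplet (GAANNTTCNNGAA or TTCNNGAANNTTC). Each set reads the same on both strands, and a triplet always contains 2 overlapping pairs. A pair occurred in 8 of the 16 windows, against 11.6% of all 35116 windows, and a triplet in 4 of the 16, against 0.441% of all windows. By gene, 8 of 10 had a pair before at least 1 start and 4 had a triplet. Capitals mark every base within a pair or triplet, and all sequences run 5′ to 3′ on the strand of the gene. A single window is given for each of 6 genes, and in GENCODE 29 exons of other transcripts overlap 3 to 199 bases of it.
HSP90AA1: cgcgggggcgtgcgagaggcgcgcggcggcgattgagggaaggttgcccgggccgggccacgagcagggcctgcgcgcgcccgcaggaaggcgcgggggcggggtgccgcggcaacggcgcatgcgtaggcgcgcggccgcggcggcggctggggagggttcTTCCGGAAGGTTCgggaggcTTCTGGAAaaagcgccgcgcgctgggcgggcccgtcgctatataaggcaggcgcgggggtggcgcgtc
HSP90AB1: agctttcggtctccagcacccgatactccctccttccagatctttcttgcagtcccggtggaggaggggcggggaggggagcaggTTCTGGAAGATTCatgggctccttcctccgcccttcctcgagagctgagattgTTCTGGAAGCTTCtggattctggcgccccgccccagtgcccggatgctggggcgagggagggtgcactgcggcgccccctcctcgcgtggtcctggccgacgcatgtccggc
HSPA1A: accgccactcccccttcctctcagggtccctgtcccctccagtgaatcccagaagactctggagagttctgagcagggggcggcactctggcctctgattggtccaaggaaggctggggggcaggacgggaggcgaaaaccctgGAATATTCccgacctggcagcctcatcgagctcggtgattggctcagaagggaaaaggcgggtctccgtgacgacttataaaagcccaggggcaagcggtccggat
HSPA1B: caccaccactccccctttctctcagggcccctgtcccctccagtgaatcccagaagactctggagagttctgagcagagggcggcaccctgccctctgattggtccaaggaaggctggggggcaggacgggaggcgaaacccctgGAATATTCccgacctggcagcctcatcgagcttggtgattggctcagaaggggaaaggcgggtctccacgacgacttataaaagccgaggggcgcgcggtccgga
HSPA8: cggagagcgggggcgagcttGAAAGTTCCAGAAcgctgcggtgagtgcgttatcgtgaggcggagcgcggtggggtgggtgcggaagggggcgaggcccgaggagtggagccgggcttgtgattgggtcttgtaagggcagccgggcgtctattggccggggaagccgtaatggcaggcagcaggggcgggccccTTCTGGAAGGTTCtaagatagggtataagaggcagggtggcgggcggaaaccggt
HSPB1: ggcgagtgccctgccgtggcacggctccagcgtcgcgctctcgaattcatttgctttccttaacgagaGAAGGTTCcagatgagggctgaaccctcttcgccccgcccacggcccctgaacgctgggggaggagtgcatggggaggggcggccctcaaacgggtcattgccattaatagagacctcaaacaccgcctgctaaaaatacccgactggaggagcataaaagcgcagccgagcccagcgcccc

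These windows lie in GRCh38.p14 at chr14:102087045-102087294 (minus strand) for HSP90AA1, chr6:44247693-44247942 (plus) for HSP90AB1, chr6:31815293-31815542 (plus) for HSPA1A and chr6:31827488-31827737 (plus) for HSPA1B. The others are chr11:123062137-123062386 (minus) for HSPA8 and chr7:76302423-76302672 (plus) for HSPB1. The triplets stand before HSP90AA1, HSP90AB1, HSPA8 and HSPD1. With starts numbered as in RefSeq's promoter table, they precede start 2 of HSP90AA1, start 3 of HSP90AB1 and start 2 of HSPD1. The windows of start 1 of HSP90AA1, starts 1 and 2 of HSP90AB1 and start 1 of HSPD1 hold no pair or triplet. Which start the cells used was not tested. In HSPA8 the nearer triplet spans bases -55 to -43, counted back from the annotated start, and a second spans -230 to -218. In HSP90AA1 the triplet spans -88 to -76 and a separate pair -68 to -61. HSP90AB1 has its triplets at -165 to -153 and -112 to -100, and HSPD1, whose window is not printed, has 1 unbroken run of 18 bases at -245 to -228. HSPA1A and HSPA1B have a single pair each, at -106 to -99 and -105 to -98, in windows that differ at 14 of 249 aligned bases, and HSPB1 has a single pair at -182 to -175. DNAJB1, not printed either, has 2 pairs before 1 of its 3 starts, and the letters searched for are not in the windows of HSPH1 and HSPE1.

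Of the 10 genes, 5 rose with barasertib (HSPB1, HSP90AA1, HSPA1A, HSPA1B and HSPH1) and 1 fell (HSPA8). Over all tested genes 29.5% were called, 22.0% as higher and 7.44% as lower. The median log2 change of the 10 genes was 0.25, beside 0.11 for all tested genes. Median-of-ratios scaling gave 4 that rose and 3 that fell, with 11.0% of all tested genes called higher and 13.6% lower. Quantile normalisation gave 5 and 1, with 11.8% and 11.4%. The 5 were not the same: HSPH1 was no longer called (limma adjusted p = 0.0684) and HSP90AB1 was called higher (limma adjusted p = 0.00745). HSPB1, HSP90AA1, HSPA1A and HSPA1B rose and HSPA8 fell under all 3 scalings. Summed over the 10 genes, expression was 6127 and 6151 TPM in the barasertib libraries, against 6018 and 6048 TPM in the DMSO libraries, or 0.614% and 0.603% of all transcripts on average. In TPM the sum therefore differed by a factor of 1.02 while single genes differed by up to 1.68. That factor depends on the scaling. The divisors of median-of-ratios scaling were 1.049 and 1.055 for the barasertib libraries, against 0.956 and 0.959 for the DMSO libraries. Dividing by them lowers the barasertib sums relative to the DMSO sums.

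**Figure D1:**
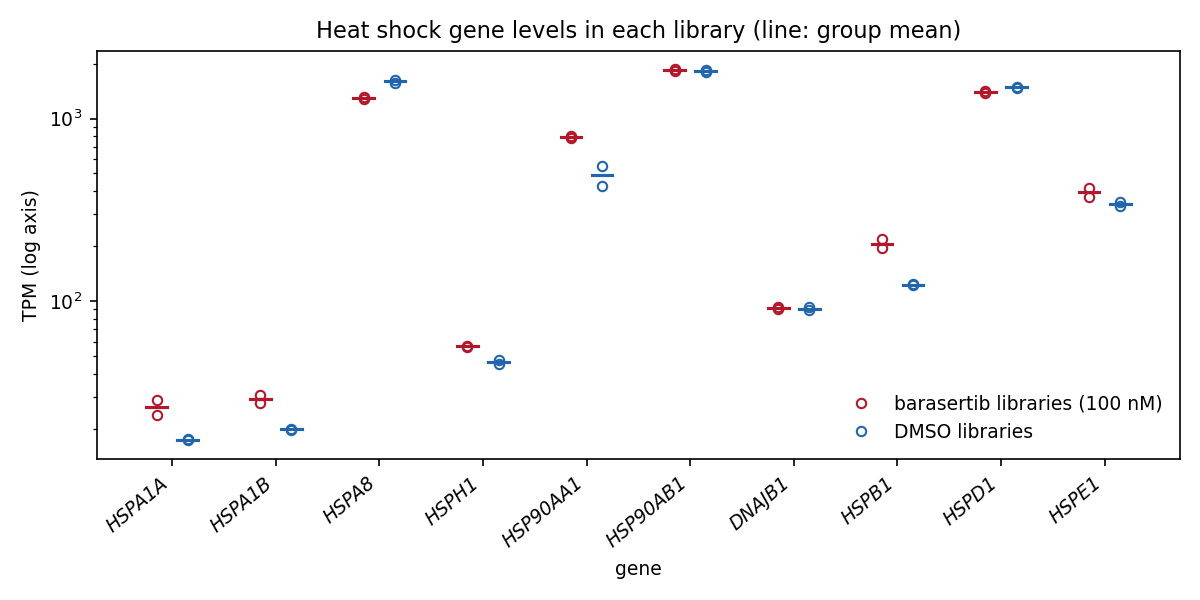
TPM of each of the 10 heat shock genes in every library, on a log axis, with barasertib (100 nM) to the left of DMSO for each gene; circles are libraries and lines are group means. The genes span 17.3 to 1861 TPM, and the groups overlap for HSP90AB1 and DNAJB1.

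HSP90AA1 encodes the inducible form of cytosolic Hsp90 and lies on chromosome 14 from 102547075 to 102606086 (hg19, as all positions in the files). It had 801 and 784 TPM in the barasertib libraries, against 429 and 549.7 TPM in the DMSO libraries. Both barasertib libraries were higher than both DMSO libraries, and the DMSO libraries stood further apart from each other than the barasertib libraries did. The means were 793 ± 12.1 TPM with barasertib and 489 ± 85.2 TPM with DMSO (SD, n = 2 each), a log2 change of 0.71 (SE 0.11, limma adjusted p = 0.00654). The DMSO gap of 0.36 on the log2 scale was larger than that of 98.1% of the 1717 genes that averaged 100 TPM or more. Without barasertib replicate 1 the log2 change was 0.69 and the call was lost (limma adjusted p = 0.0578). Without DMSO replicate 1 the change was 0.53 and without DMSO replicate 2 it was 0.88, both of which passed; in these fits the DMSO arm is 1 library, so its wide gap is removed by construction and that library is assumed to vary like the barasertib libraries.

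HSP90AB1, on chromosome 6 from 44213903 to 44221625, encodes the constitutive form and had the highest level of the 10 genes, ranking 76 among the tested genes by mean TPM. It had 1832 and 1861 TPM in the barasertib libraries, against 1847 and 1807 TPM in the DMSO libraries. The groups overlapped. In TPM the log2 change was 0.01 with a 95% interval of -0.06 to 0.09 (limma adjusted p = 0.743), so that interval holds neither a rise nor a fall beyond 0.09. The result depends on the scaling: HSP90AB1 fell after median-of-ratios scaling (log2 change -0.12, limma adjusted p = 0.0338) and rose after quantile normalisation (0.20, limma adjusted p = 0.00745).

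A ratio of both genes within a library does not depend on a linear scaling of that library. HSP90AA1 amounted to 0.437 and 0.421 of HSP90AB1 in the barasertib libraries, against 0.232 and 0.304 in the DMSO libraries. The ratio was higher in both barasertib libraries, by a factor of 1.60 between the means (exact permutation test, two-sided, p = 0.333, the smallest that 2 against 2 libraries allow). Together the cytosolic Hsp90 genes gave 2639 ± 8.28 TPM with barasertib and 2317 ± 57.2 TPM with DMSO (SD, n = 2 each).

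The inducible Hsp70 genes HSPA1A and HSPA1B lie 9792 bases apart on chromosome 6, HSPA1A from 31783291 to 31785719 and HSPA1B from 31795512 to 31798031. They encode the stress-inducible cytosolic Hsp70. Their longest annotated transcripts in GENCODE 29 share 1666 of 2384 windows of 100 bases, so reads can be split between them in an unknown way, and the level of each one alone is uncertain. No other pair among the 10 genes and HSPA1L, their neighbour, shared such a window. Copies of these genes elsewhere in the genome and shared stretches shorter than 100 bases were not compared. HSPA1A had 28.6 and 23.7 TPM in the barasertib libraries, against 17.6 and 17.3 TPM in the DMSO libraries. HSPA1B had 30.7 and 27.6 TPM with barasertib, against 20.0 and 19.6 TPM with DMSO. Each gene was higher in both barasertib libraries, and the groups did not overlap.

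Summed, which removes the split of shared reads, HSPA1A and HSPA1B gave 59.3 and 51.3 TPM in the barasertib libraries, against 37.6 and 36.9 TPM in the DMSO libraries. The sum rose by 0.55 on the log2 scale (SE 0.08, limma adjusted p = 0.0059), and fitted apart the genes rose by 0.55 (limma adjusted p = 0.0115) and 0.53 (0.00582). The ratio of HSPA1A to HSPA1B was 0.895 ± 0.0531 with barasertib and 0.879 ± 0.00346 with DMSO (SD, n = 2 each), which differed by less than the spread between the barasertib libraries. These 2 genes were the lowest of the 10 in both groups. HSPA6, another Hsp70 gene known for its strict dependence on stress, was below the filter, with 0.139 and 0.132 TPM with barasertib, against 0.277 and 0.287 TPM with DMSO.

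HSPA8 (Hsc70) encodes the constitutive cytosolic Hsp70, which also uncoats clathrin vesicles, and lies on chromosome 11 from 122928200 to 122933043. It had 1317 and 1285 TPM in the barasertib libraries, against 1621 and 1573 TPM in the DMSO libraries. Both barasertib libraries were lower than both DMSO libraries. HSPA8 averaged 1301 ± 22.6 TPM with barasertib and 1597 ± 34.2 TPM with DMSO (SD, n = 2 each), and fell by 0.30 on the log2 scale (SE 0.03, limma adjusted p = 0.00263). The fall ranged from -0.43 after median-of-ratios scaling to -0.15 after quantile normalisation, and it passed the test in each of the 15 alternative settings.

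HSPA1A and HSPA1B together amounted to 0.0450 and 0.0399 of HSPA8 in the barasertib libraries, against 0.0232 and 0.0234 in the DMSO libraries. The means of that ratio differed by a factor of 1.82, with no overlap (exact permutation test, two-sided, p = 0.333, the smallest possible). Since HSPA8 was far more abundant, the 3 genes summed to less with barasertib, 1356 ± 28.3 TPM, against 1634 ± 34.8 TPM with DMSO (SD, n = 2 each).

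**Figure D2:**
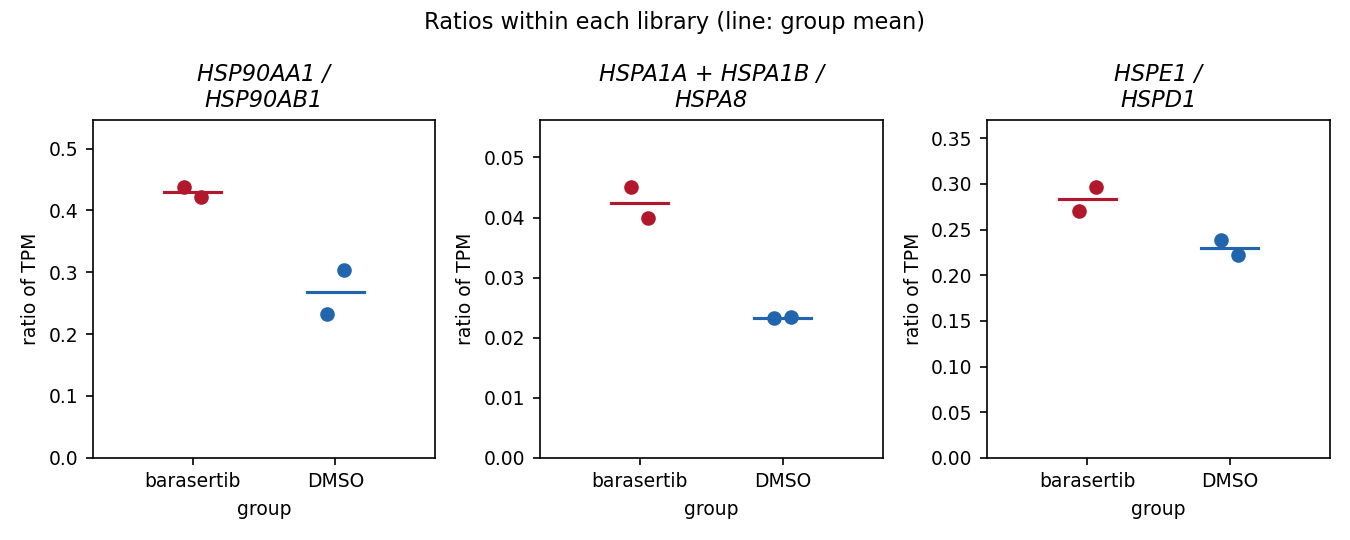
Ratios of TPM between related genes within each library, with barasertib left of DMSO in each panel; points are libraries, lines are group means and the axes start at 0. In all 3 panels both barasertib libraries lie above both DMSO libraries, as for HSP90AA1 over HSP90AB1 (0.429 with barasertib and 0.268 with DMSO on average).

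Partners of Hsp70 did not move alike. HSPH1, an Hsp110 protein that acts as nucleotide exchange factor (chromosome 13 from 31709111 to 31736525), had 56.1 and 57.0 TPM in the barasertib libraries, against 45.2 and 47.5 TPM in the DMSO libraries. The groups did not overlap, and HSPH1 rose by 0.28 on the log2 scale (SE 0.06, limma adjusted p = 0.0173). It no longer passed under median-of-ratios scaling (0.15, limma adjusted p = 0.113) or quantile normalisation (0.18, limma adjusted p = 0.0684). Nor did it pass without barasertib replicate 1, without barasertib replicate 2 or without DMSO replicate 1 (limma adjusted p = 0.0638, 0.0706 and 0.0839). DNAJB1, a J-domain protein that delivers clients to Hsp70 (chromosome 19 from 14625576 to 14640134), had 90.5 and 92.9 TPM with barasertib, against 92.3 and 89.0 TPM with DMSO. Its groups overlapped, and its log2 change of 0.02 had a 95% interval of -0.11 to 0.14 (limma adjusted p = 0.824). The sign turned under median-of-ratios scaling (-0.12, limma adjusted p = 0.149) and quantile normalisation (-0.08, 0.324), without a call.

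HSPB1 (Hsp27) is a small heat shock protein, which holds unfolded clients without using ATP and is also known to bind actin filaments. The gene lies on chromosome 7 from 75931875 to 75933614. It had 219 and 194 TPM in the barasertib libraries, against 123 and 123 TPM in the DMSO libraries. Both barasertib libraries were higher, by more than their own gap. HSPB1 averaged 207 ± 17.3 TPM with barasertib and 123 ± 0.567 TPM with DMSO (SD, n = 2 each), and its log2 change of 0.74 (SE 0.07, limma adjusted p = 0.00124) was the largest of the 10 in TPM with all libraries. After quantile normalisation (0.72 against 0.64) and without DMSO replicate 2 (0.88 against 0.74) that of HSP90AA1 was larger. HSPB1 passed the test in each of the 15 alternative settings, with log2 changes of 0.61 to 0.83.

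The tested genes whose log2 values, centred on their own mean, lay nearest to those of HSPB1 over the 4 libraries were ACTB (Euclidean distance 0.03), PSMG3-AS1 (0.03) and POU3F1 (0.04). ACTB, the beta-actin gene, had 4700 and 4214 TPM with barasertib, against 2701 and 2612 TPM with DMSO, a log2 change of 0.74. With 4 libraries in 2 groups, this distance describes little beyond a like difference between the groups.

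The mitochondrial chaperonin genes stand head to head on chromosome 2, HSPD1 on the minus strand from 198351308 to 198364998 and HSPE1 on the plus strand from 198364721 to 198368187, with an overlap of 278 bases. The use of strand by the authors is not given in their notes, so reads in that overlap cannot be assigned with certainty. HSPD1 had 1379 and 1408 TPM in the barasertib libraries, against 1472 and 1491 TPM in the DMSO libraries. HSPE1 had 373 and 417 TPM with barasertib, against 350.3 and 331 TPM with DMSO. HSPD1 was lower and HSPE1 higher in both barasertib libraries.

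Neither passed the test in TPM. HSPD1 had a log2 change of -0.09 with a 95% interval of -0.16 to -0.01 (limma adjusted p = 0.0837), and HSPE1 of 0.21 with an interval of 0.06 to 0.37 (limma adjusted p = 0.0511). HSPD1 fell after median-of-ratios scaling (-0.22, limma adjusted p = 0.00473) and in FPKM (-0.11, limma adjusted p = 0.0347), while after quantile normalisation its sign turned (0.06, limma adjusted p = 0.225). HSPE1 rose without barasertib replicate 1 (0.29, limma adjusted p = 0.0427) and with a minimum of 5 TPM (limma adjusted p = 0.0436). Its change was smaller and not called after median-of-ratios scaling (0.08, limma adjusted p = 0.403), after quantile normalisation (0.15, 0.138) and without barasertib replicate 2 (0.13, 0.167). The ratio of HSPE1 to HSPD1 was 0.271 and 0.296 in the barasertib libraries, against 0.238 and 0.222 in the DMSO libraries, with no overlap (exact permutation test, two-sided, p = 0.333, the smallest possible).

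The read-through gene HSPE1-MOB4 starts in HSPE1, so reads may have been divided between HSPE1 and this gene. It had 11.2 and 10.6 TPM with barasertib, against 7.15 and 7.88 TPM with DMSO, a rise of 0.48 on the log2 scale (limma adjusted p = 0.0147). That is far below the level of HSPE1 itself.

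**Figure D3:**
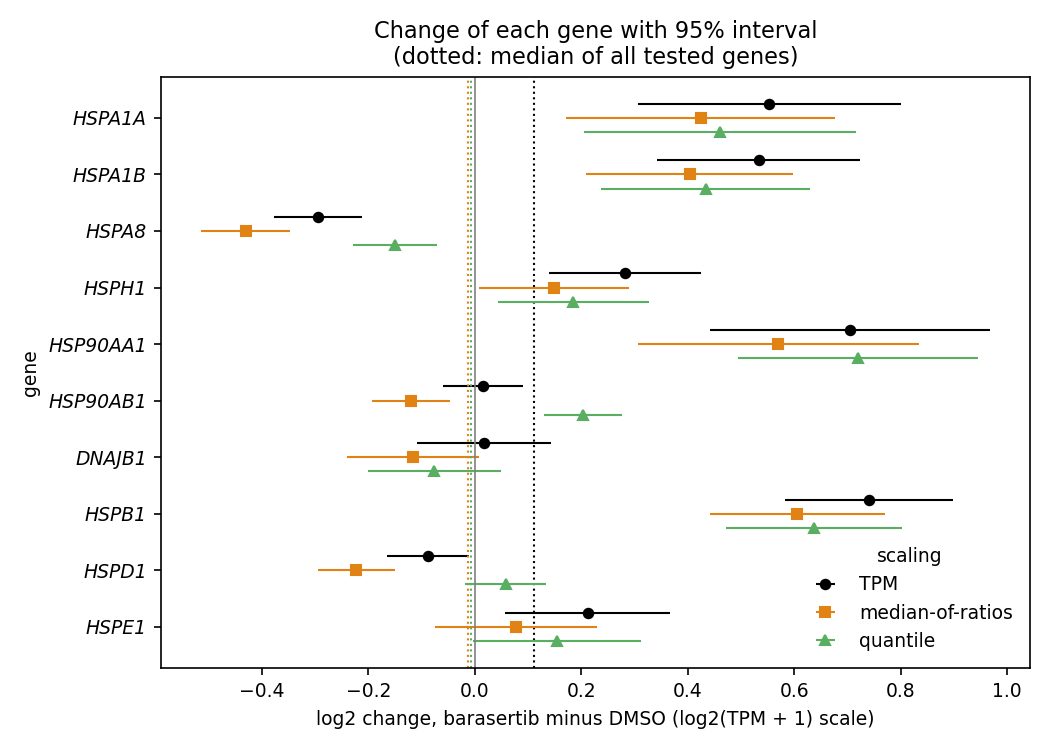
Log2 change of each gene, barasertib minus DMSO, with its 95% interval, in TPM (circles), after median-of-ratios scaling (squares) and after quantile normalisation (triangles); dotted lines are the medians of all tested genes. HSPB1, HSP90AA1, HSPA1A and HSPA1B lie to the right and HSPA8 to the left of 0 under all 3, while HSP90AB1, DNAJB1 and HSPD1 change side.

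Set beside the upstream sequences given above, genes with like repeats in these windows differed in their change. Of the 4 genes with a triplet before any annotated start, HSP90AA1 rose, HSPA8 fell, and HSP90AB1 and HSPD1 did not pass the test in TPM. Of the 4 with pairs alone, HSPA1A, HSPA1B and HSPB1 rose and DNAJB1 did not pass. HSPH1 rose with neither in its window, and HSPE1, also with neither, did not pass in TPM (limma adjusted p = 0.0511). Repeats more than 250 bases before a start were searched for only where the window of another start covered them. That holds for part of the region that HSPE1 shares with HSPD1. The window of HSPD1 start 2 (chr2:197499841-197500090), with its run of 18 bases, lies upstream of the HSPE1 window (chr2:197500129-197500378). In GENCODE, exons overlap all 250 bases of the HSPE1 window. A match of letters is a description of these windows, not a binding site.

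Among the heat shock factors and their regulators, HSF1 did not pass the test. This gene, the main activator of the stress response, had 92.6 and 90.5 TPM in the barasertib libraries, against 90.2 and 87.6 TPM in the DMSO libraries (log2 change 0.04, 95% interval -0.08 to 0.17, limma adjusted p = 0.561). Of 3 tested genes of 5 listed, 1 rose and none fell, beside 22.0% and 7.44% of all tested genes. The gene that rose was HSBP1, which encodes a protein known to bind the trimer of HSF1, with 149 ± 1.21 TPM with barasertib and 110.5 ± 1.06 TPM with DMSO (SD, n = 2 each; log2 change 0.43, limma adjusted p = 0.00205).

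Of 17 further genes known as HSF1 targets, 15 were tested, 11 rose and none fell, with a median log2 change of 0.26 beside 0.11 for all tested genes. Over all tested genes 22.0% rose in TPM. Median-of-ratios scaling left 2 that rose and 1 that fell, beside 11.0% and 13.6% of all tested genes, and quantile normalisation 6 and 1, beside 11.8% and 11.4%. With any 1 library left out, 4 to 7 rose, the fewest without barasertib replicate 2. BAG3, a co-chaperone that links Hsp70 to autophagy, changed most among them, with 26.7 and 25.7 TPM with barasertib, against 16.9 and 16.3 TPM with DMSO (log2 change 0.63, limma adjusted p = 0.00251). DNAJB4 rose by 0.30 and SERPINH1, a collagen chaperone, by 0.29 on the log2 scale (limma adjusted p = 0.0272 and 0.00837), and neither passed after median-of-ratios scaling (limma adjusted p = 0.143 and 0.069), nor did DNAJB4 after quantile normalisation (0.0865). DNAJB4 also missed the threshold without any 1 library other than barasertib replicate 1 (limma adjusted p = 0.0700, 0.0921 and 0.0978), and SERPINH1 without that library (0.0545). Of these 17 genes 13 also stand on the lists that follow.

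Among co-chaperones of Hsp90, 8 of 15 rose and none fell, with a median of 0.24, beside 22.0% and 7.44% of all tested genes. The counts were 1 and 1 under median-of-ratios scaling, beside 11.0% and 13.6%, and 2 and 1 under quantile normalisation, beside 11.8% and 11.4%, near or below those shares. With any 1 library left out, 2 to 5 rose. PTGES3 (p23), which stabilises the closed form of Hsp90, had 570 ± 17.7 TPM with barasertib and 468 ± 2.70 TPM with DMSO (SD, n = 2 each; log2 change 0.28, limma adjusted p = 0.00493). AHSA1, an activator of its ATPase, rose by 0.29 (limma adjusted p = 0.0114) and FKBP5, an immunophilin, by 0.37 (limma adjusted p = 0.0173), but neither passed after median-of-ratios scaling (limma adjusted p = 0.0783 and 0.0707). After quantile normalisation AHSA1 passed (0.0403) and FKBP5 did not (0.0512). Without barasertib replicate 1 both missed the threshold as well (limma adjusted p = 0.0530 and 0.0821), as did AHSA1 without barasertib replicate 2 (0.0600) and FKBP5 without DMSO replicate 1 (0.0753). Of 9 co-chaperones of Hsp70, BAG3 rose and none fell, with a median of 0.17, beside the same 22.0% and 7.44%.

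In the rest of the Hsp70 and Hsp110 family 4 of 6 tested genes of 8 listed rose and none fell, beside 22.0% and 7.44% of all tested genes. Under each of the other scalings 1 rose, beside 11.0% and 11.8%, and with any 1 library left out 0 to 2 rose. HSPA12B had 3.41 ± 0.169 TPM with barasertib and 1.53 ± 0.0520 TPM with DMSO (SD, n = 2 each; log2 change 0.80, limma adjusted p = 0.0108), a call lost without either barasertib library (limma adjusted p = 0.0673 and 0.0523). HSPA2 rose by 0.46 and HSPA14 by 0.35 (limma adjusted p = 0.0235 and 0.0323), and neither passed after either other scaling. HSPA2 did not pass without any 1 library, nor HSPA14 without any other than DMSO replicate 2. The fourth gene, HSPA4, rose by 0.16 (limma adjusted p = 0.0333), and did not pass under either other scaling (0.670 and 0.155) or without any 1 library (0.0687 to 0.137). Of 13 other tested J-domain genes 5 rose and 1 fell, beside the same 22.0% and 7.44%. The counts were 2 and 2 under median-of-ratios scaling, beside 11.0% and 13.6% of all tested genes. They were 3 and 1 under quantile normalisation, beside 11.8% and 11.4%. The gene that fell was DNAJB5, with 28.5 ± 0.359 TPM with barasertib and 33.5 ± 0.101 TPM with DMSO (SD, n = 2 each; limma adjusted p = 0.0385). It fell under both other scalings too, but missed the threshold whichever library was left out (limma adjusted p of 0.0936 to 0.143), and 3 to 4 J-domain genes then rose. DNAJB2 rose to 69.1 ± 0.885 TPM with barasertib, against 51.9 ± 0.955 TPM with DMSO, and DNAJB6 to 266 ± 0.595 TPM with barasertib, against 208 ± 9.87 TPM with DMSO (SD, n = 2 each; limma adjusted p = 0.00426 and 0.00472). Apart from HSPB1, 1 of 8 other small heat shock genes passed the filter, HSPB8, with 26.9 ± 2.77 TPM with barasertib and 32.6 ± 2.29 TPM with DMSO (SD, n = 2 each). HSPB8 was not called in TPM (log2 change -0.27, limma adjusted p = 0.0774). It fell after median-of-ratios scaling (-0.40, limma adjusted p = 0.0298) and after quantile normalisation (-0.36, limma adjusted p = 0.0458), the opposite direction to HSPB1.

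In mitochondria, HSPA9 (mortalin), the matrix Hsp70 that pulls imported proteins through the inner membrane, had 842 and 893 TPM in the barasertib libraries, against 1123 and 1125 TPM in the DMSO libraries. It fell by 0.37 on the log2 scale (limma adjusted p = 0.00209), in the same direction as HSPA8. Its J-domain partner DNAJA3 fell by 0.26 and the matrix protease gene LONP1 by 0.28 (limma adjusted p = 0.0126 and 0.0157). DNAJA3 missed the threshold without barasertib replicate 1 (limma adjusted p = 0.0565) and without DMSO replicate 2 (0.0632), and LONP1 without barasertib replicate 2 or DMSO replicate 1 (0.0742 and 0.0603). TRAP1, the mitochondrial Hsp90, had 124 and 116 TPM with barasertib, against 116 and 116 TPM with DMSO (limma adjusted p = 0.488). Of 18 other mitochondrial chaperone and protease genes 3 fell and 1, AFG3L2, rose by 0.19 (limma adjusted p = 0.0428), with a median of 0.09, beside 7.44% and 22.0% of all tested genes. The 3 also fell under the other scalings, beside 13.6% and 11.4%. Without any 1 library 2 fell and 0 rose.

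**Figure D4:**
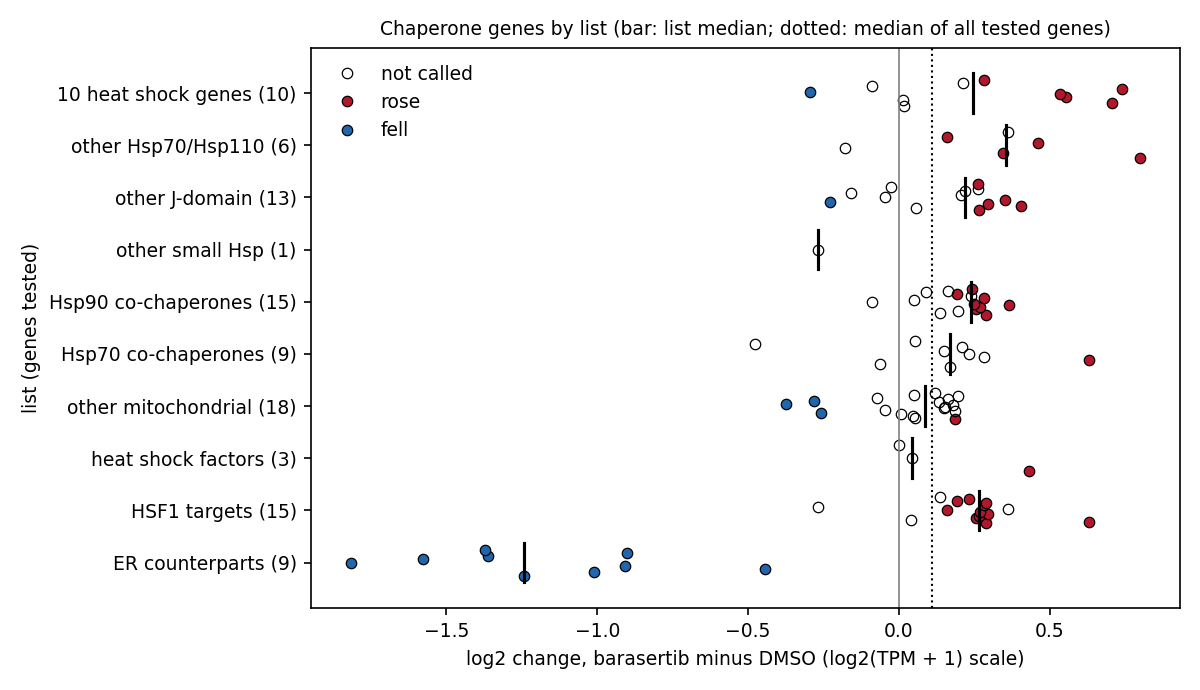
Log2 change of every tested gene, barasertib minus DMSO, by list, with filled circles for genes that rose (red) or fell (blue) in TPM and open circles for the others; bars are list medians and the dotted line is the median of all tested genes (0.11). All 9 endoplasmic reticulum counterparts lie left of 0, and 8 of them lie left of every gene of the other lists.

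The chaperones and folding factors of the endoplasmic reticulum listed here were lower with barasertib. That list does not hold SERPINH1, the collagen chaperone that rose. Over all tested genes 7.44% fell in TPM, 13.6% after median-of-ratios scaling and 11.4% after quantile normalisation. All 9 listed (HSPA5, HSP90B1, HYOU1, DNAJB9, DNAJB11, DNAJC3, SDF2L1, CRELD2 and MANF) fell, under each scaling and without any 1 library, with a median log2 change of -1.24. HSPA8 amounted to 1.39 and 1.26 times the level of HSPA5, its counterpart in that compartment, in the barasertib libraries, against 0.565 and 0.524 times in the DMSO libraries. The cytosolic Hsp90 genes together amounted to 2.79 and 2.67 times HSP90B1 in the barasertib libraries, against 0.665 and 0.695 times in the DMSO libraries. For both ratios the order of the compartments differed between the groups: the cytosolic transcripts were the more abundant with barasertib and the less abundant with DMSO (exact permutation test, two-sided, p = 0.333 for each, the smallest possible).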

How the data were processed

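The submitters' processing notes name HISAT2, StringTie and the build hg19, without versions or options. Per the file headers, the deposited values are coverage (signal, the mean depth over a gene, used for the depth estimate), FPKM (used as an alternative) and TPM, which the authors scaled to 1000000 per library. The files hold no counts. Rows were summed per gene ID, and RefSeq names (GRCh38.p14, names only) matched 27559 of 27685 IDs. Positions of genes are hg19, and promoter windows are RefSeq's in GRCh38.p14.

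The test was limma 3.58.1 (R 4.3.3) on log2(TPM + 1) for IDs with a mean of at least 1 TPM, with group as the only term, moderated with a mean-variance trend (residual degrees of freedom 2, prior 4.09), two-sided, Benjamini-Hochberg over all 13938 genes, threshold 0.05. The precision is that of 2 libraries per group: replicates differed with an SD of 0.25 on the log2 scale in both. Alternatives were other filters, pseudocounts and scalings, FPKM, the highest row per ID, no trend, a replicate block, leaving out each library in turn, and HSPA1A and HSPA1B summed. The highest row per ID leaves the values of all 10 genes unchanged, as each stands on a single row. Summing HSPA1A and HSPA1B leaves those of the other members unchanged.

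The members and gene lists were chosen with earlier results of these data known. Named outside the 10 genes, by rule, are up to 3 called genes per list with the largest change (or the most abundant gene), HSF1, HSPA9, TRAP1, HSPA5 and HSP90B1, and the 3 genes nearest to the most changed member. HSPA6, HSPE1-MOB4, HSPA4, DNAJB5 and AFG3L2 were named after their values were seen. Python 3.11.15 and matplotlib 3.10.9 made tables and plots.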

Additional observations from a re-analysis of the deposited data

How the results depend on the processing

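Among the 10 genes 5 rose in TPM, and 4 to 6 in the alternatives, with HSPE1 as the sixth where the minimum was 5 TPM. After quantile normalisation the 5 held HSP90AB1 in place of HSPH1. The number that fell, 1 in TPM, was 2 with FPKM and 3 after median-of-ratios scaling, where HSP90AB1 (log2 change -0.12, against 0.01 in TPM) and HSPD1 joined HSPA8. HSPA8, HSPB1, HSPA1A and HSPA1B kept direction and call in each alternative. Without any 1 library, 4 to 5 genes rose and 1 fell. Over all tested genes, 3071 rose and 1037 fell. These were 1534 and 1891 after median-of-ratios scaling, 1649 and 1590 after quantile normalisation, 674 fell without the mean-variance trend, and 1324 to 2105 rose and 583 to 687 fell without any 1 library. As shares of all tested genes, 22.0% rose and 7.44% fell in TPM, and 11.0% and 13.6% after median-of-ratios scaling. After quantile normalisation 11.8% rose. The wider chaperone network, outside the 10 genes and the 9 listed genes of the endoplasmic reticulum, had 69 tested genes. Of these 22 rose and 4 fell. There were 6 and 7 after median-of-ratios scaling, 10 that rose after quantile normalisation, 9 and 1 without the mean-variance trend, and 8 to 14 rose and 2 to 3 fell without any 1 library. The cause was not tested. With the replicate number as a block, 3218 genes rose and 1080 fell, and 5 and 1 of the 10 genes, which ended no call among the 10. The labels state no pairing, and the deviations of same-numbered libraries correlated at r = 0.02 over the tested genes. That correlation cannot show whether same-numbered libraries were prepared together. With 2 libraries per group and no read counts, the depth behind low genes is unknown.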

Other observations

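ST13 (Hip), a co-chaperone that steadies the client-bound state of Hsp70, differed between the libraries of a group and was named after its values were seen. It had 169 and 276 TPM in the barasertib libraries, against 302 and 300.3 TPM in the DMSO libraries, with a log2 change of -0.48 and a 95% interval of -0.97 to 0.02.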
